A study of Homo sapiens with 6 samples.

Results

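Tropomodulins and tropomyosins are 2 small human gene families of the actin cytoskeleton, with 4 members each: TMOD1, TMOD2, TMOD3 and TMOD4, and TPM1, TPM2, TPM3 and TPM4. The 8 genes were taken by symbol from a table of 61806 genes, and all 8 were found. They were chosen by measured values, since the FPKM and counts of TMOD3 in these same libraries were already known to be lower in the edited cells. The difference between edited and wild-type cells is therefore given for the members as a description, with no test, and it supports nothing by itself. RNA came from HEK293, an established line of human embryonic kidney origin. The 3 rs16851030-mutant libraries came from cells into which the rs16851030 variant, a variant of the adenosine A1 receptor gene, was introduced by CRISPR homology-directed repair. The 3 wild-type libraries came from cells of the same line with the genotype WT, grown in the same medium. The sources used here do not state whether the edited cells were 1 clone, several clones or a mixture, so the effect of the variant and differences between clones cannot be told apart.

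Actin filaments grow and shrink at both ends. Tropomodulins cap the slow-growing (pointed) end and limit the exchange of actin subunits there. Tropomyosins are coiled-coil proteins that lie end to end along the filament and help decide which motors and severing proteins can bind it. Tropomodulins bind tropomyosin as well as actin, so a capped filament usually carries both. TMOD1 is best known from red blood cells and striated muscle, TMOD2 from neurons and TMOD4 from skeletal muscle, while TMOD3 is the broadly expressed form. TPM1 and TPM2 supply the main muscle tropomyosins together with some cytoskeletal forms, and TPM3 and TPM4 are major cytoskeletal genes. Each tropomyosin gene makes several isoforms from alternative promoters and exons, which counts per gene do not separate.

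The libraries held 16013460 to 20349609 counts assigned to genes. Log2 counts per library total correlated at r = 0.995 to 0.997 within a group and at 0.974 to 0.981 between groups over tested genes, which are not independent replicates. A gene was tested where its mean over the 6 libraries was at least 1 FPKM (counts per kilobase of exon, scaled to the library total), and called where the Benjamini-Hochberg adjusted p of the edgeR quasi-likelihood fit was below 0.05. Of 12550 genes tested in this way, 58% were called, 29.4% higher and 28.7% lower in the mutant. Genes known from HEK293 cells were present, with 8 of 9 at a mean of at least 1 FPKM over the 6 libraries. PAX2 was the exception, at 0.17 to 0.27 FPKM in mutant and 0.04 to 0.16 FPKM in wild-type libraries. The summed level of these 9 genes was 139.9 to 143.6 FPKM in the mutant and 224 to 255 FPKM in the wild type. VIM made up most of that sum, with a mean of 87.4 FPKM in the mutant and 152.8 FPKM in the wild type. It lies on chromosome 10, where the median log2 fold change of 492 tested genes was -0.36. Of the 8 tested, 6 were lower, 1 was higher (EYA1) and 1 was not called. Markers of skeletal and cardiac muscle, tissues in which TMOD1, TMOD4 and TPM2 are prominent, were low in sum, at 2.64 to 3.20 FPKM in the mutant and 2.09 to 2.26 FPKM in the wild type, and 0 of 12 had a mean of at least 1 FPKM over the 6 libraries. Within that list MYOD1, a regulator of muscle genes, had 1.66, 1.48 and 1.04 FPKM in the mutant, against 0.28, 0.26 and 0.34 FPKM in the wild type. MYH3, embryonic myosin heavy chain, had 0.71 to 0.89 FPKM in the mutant and 0.92 to 1.01 FPKM in the wild type. HBA1, an alpha-globin gene of red blood cells with a near-identical copy, had 2.00, 1.07 and 1.87 FPKM in the mutant, against 0.67, 0.64 and 0.34 FPKM in the wild type (log2 fold change 1.55, adjusted p = 0.00223, edgeR), and HBB, beta-globin, was listed at 0 FPKM in every library. HBA1 reached a mean of 1 FPKM through its mutant level. It lies on chromosome 16, where the median of 578 tested genes was 0.29. Of 9 neuronal markers, 2 had such a mean (NEFL and SYT1), with a sum of 29.88 to 31.67 FPKM in mutant and 19.46 to 22.67 FPKM in wild-type libraries. Of 6 smooth muscle markers, 3 did (ACTA2, LMOD1 and SMTN), with a sum of 20.3 to 22.2 FPKM in the mutant and 16.7 to 18.3 FPKM in the wild type. These 3 were called in both directions, with ACTA2 and LMOD1 higher and SMTN lower in the mutant. SMTN had a mean of 5.62 FPKM in the mutant and 7.63 FPKM in the wild type (log2 fold change -0.47, adjusted p = 2.44e-06, edgeR). It lies on chromosome 22, where the median of 333 tested genes was -0.16. The part of other cell types in the results below was not tested.

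TMOD3 (ENSG00000138594) lies on the plus strand of chromosome 15 at 51829628 to 51947295 (GRCh38). The DNA just before its start is shown because TMOD3 is the member with the largest difference. It is the part of the RefSeq promoter window (GRCh38.p14, chr15:51829403-51829627, plus strand, 225 bases) that ends where the deposited gene begins.
TMOD3 upstream: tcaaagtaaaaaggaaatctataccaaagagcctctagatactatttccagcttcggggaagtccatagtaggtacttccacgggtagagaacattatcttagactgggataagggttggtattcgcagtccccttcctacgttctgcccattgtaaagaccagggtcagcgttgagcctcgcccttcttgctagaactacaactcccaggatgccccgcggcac
The second stretch is from the promoter windows of TPM4, the tropomyosin that was higher in the mutant, on chromosome 19 (GRCh38.p14, chr19:16067355-16067384, plus strand). Capitals mark a CArG box, the motif bound by serum response factor (SRF), a regulator of many actin genes.
TPM4 CArG box: aatcctaggtCCAAATAAGGcgagggctgc
RefSeq held 13 windows for the 8 members, each from 250 bases before to 50 bases after a start. The CArG box was searched together with CATTCC (the MCAT element) and TATAAA, on both strands. It was found in 1 window, a TPM4 window in which it lies at position -173 from the start, against 1.29% of 35116 windows of the same length. That window lies inside the deposited TPM4 gene, which begins at 16067021. The box is thus before the RefSeq start of its window but not before the deposited start. CATTCC was in none of the members' windows (14.0% of all windows), and TATAAA was in 1 window of TMOD1 (11.5% of all windows). The window of TMOD3 held none of the 3 motifs, and its G and C content was 54.3%, against 75.3% in that of its neighbour TMOD2 and a median of 58.7% over all windows. A match describes the letters of a window and does not show binding.

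TMOD3 was the tropomodulin that was lower by the widest margin in the edited cells. Its FPKM was 0.63, 0.56 and 0.60 in mutant replicates 1 to 3, against 3.64, 3.83 and 3.76 in wild-type replicates 1 to 3. The groups were far apart, and the 3 values of each group lay close together. The counts behind them were 136, 100 and 103 in the mutant and 694, 687 and 709 in the wild type. The fitted log2 fold change was -2.68 (SE 0.09, 95% interval -2.86 to -2.49), a level 6.39-fold lower. Only 3 of 12550 tested genes had a lower log2 fold change, and none of these was a called gene that GENCODE 29 lists as protein-coding. TMOD3 entered the test through its wild-type level, since its mutant mean of 0.597 FPKM was under the minimum of 1 FPKM over all libraries. On the log2(FPKM + 1) scale, where the added 1 exceeds the mutant level, its fold change was -1.57. In these bulk libraries, fewer cells with a transcript and less transcript per cell cannot be told apart.

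TMOD2, the neuronal form, was higher in the mutant. It lies directly before TMOD3 on chromosome 15 (51751597 to 51816363, plus strand), with 13264 bases between the end of the one and the start of the other. TMOD2 had 4.20, 3.58 and 3.74 FPKM in the mutant, against 2.07, 1.97 and 1.78 FPKM in the wild type. Every mutant value lay above every wild-type value, and the fitted log2 fold change was 0.95 (SE 0.08), a 1.94-fold higher level. The ratio of TMOD3 to TMOD2 FPKM was 0.156 ± 0.00526 in the mutant and 1.94 ± 0.177 in the wild type (SD, n = 3 each). TMOD3 was thus the more abundant neighbour in each wild-type library and the less abundant one in each mutant library.

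TMOD1, on chromosome 9 (97501180 to 97601743, plus strand), was also higher in the mutant. Its FPKM was 3.07, 3.20 and 3.38 in the mutant libraries, against 2.56, 1.89 and 2.27 in the wild-type libraries. The groups did not overlap, and the log2 fold change was 0.49 (SE 0.13). In GENCODE 29, 1669 bases (45.0%) of the TMOD1 exons are shared with exons of TSTD2 on the other strand. Since no source used here says whether reads were counted by strand, the TMOD1 level is uncertain. On the log2(FPKM + 1) scale the fold changes of TMOD1 and TMOD2 were smaller than in the count fit. Over all alternatives their lowest values were 0.26 and 0.60.

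TMOD4, the skeletal muscle form on chromosome 1 (151169986 to 151176284, minus strand), was barely detected and did not reach the minimum for a test. It had 9, 11 and 6 counts in the mutant and 21, 22 and 21 counts in the wild type, or 0.24, 0.35 and 0.20 FPKM against 0.64, 0.71 and 0.64 FPKM. The mutant values were the lower ones throughout. In the fit without a minimum the log2 fold change was -1.37, with a wide SE of 0.40 from these few counts. TMOD4 was among the 7 of 8 members called there, where 8966 of all 32852 genes were called. The members were chosen by these values, so that count is a description only. Its exons share 118 bases (6.40%) with SCNM1 on the other strand, a gene of 747 to 1191 counts per library.

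**Figure D1:**
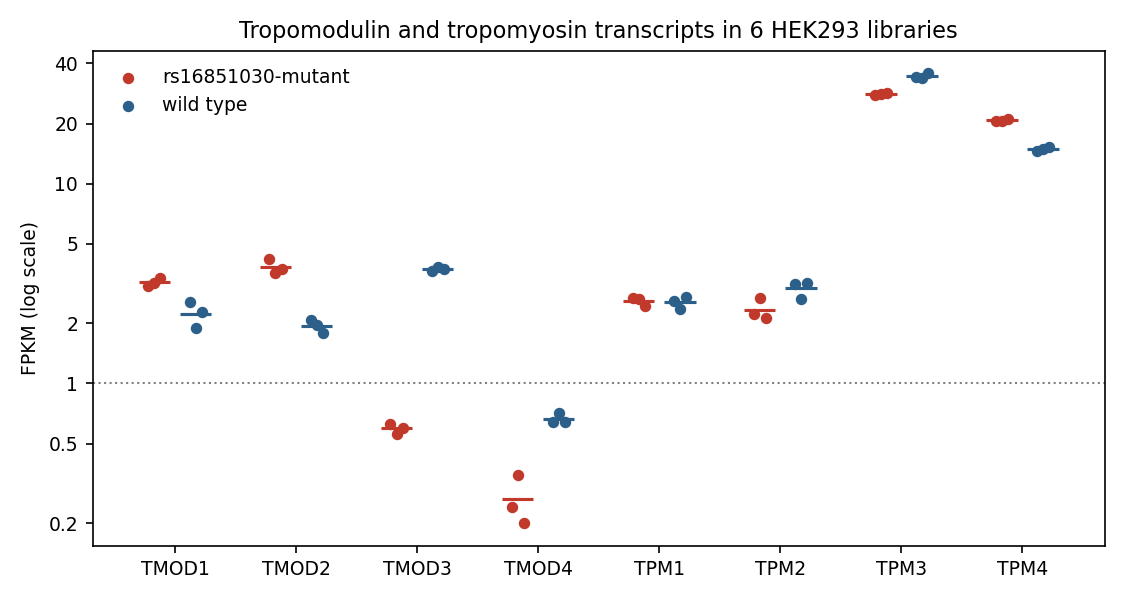
FPKM of the 4 tropomodulin and 4 tropomyosin genes on a log axis, with 1 point for each of the 3 rs16851030-mutant (red, left) and 3 wild-type libraries (blue, right), a bar at each mean, and a dotted line at the minimum of 1 FPKM for the mean over all libraries. TMOD3 sits at 0.56 to 0.63 in the mutant and at 3.64 to 3.83 in the wild type, whereas TMOD1, TMOD2 and TPM4 sit higher in the mutant.

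The tropomodulins differed in makeup far more than in sum. Their summed level was 8.14, 7.69 and 7.92 FPKM in the mutant, against 8.91, 8.40 and 8.45 FPKM in the wild type. Each mutant sum was lower than each wild-type sum, and the means were 7.92 ± 0.225 FPKM in the mutant and 8.59 ± 0.281 FPKM in the wild type (SD, n = 3 each). TMOD3 made up 7.53% ± 0.232 of that sum in the mutant and 43.6% ± 2.48 in the wild type (SD, n = 3 each), where it was the leading member. TMOD2 made up 48.5% ± 2.74 in the mutant and 22.6% ± 1.32 in the wild type, and TMOD1 made up 40.7% ± 2.61 in the mutant and 26.0% ± 3.20 in the wild type (SD, n = 3 each). TMOD4 stayed a minor part, at 3.34% ± 1.07 in the mutant and 7.74% ± 0.650 in the wild type.

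Among tropomyosins, TPM3 and TPM4 held most of the level in both groups, and they differed between groups in opposite directions. TPM3, on chromosome 1 (154155304 to 154194648, minus strand), had 27.68, 27.96 and 28.34 FPKM in the mutant, against 34.19, 33.78 and 35.69 FPKM in the wild type. The mutant values were all below the wild-type ones, with a log2 fold change of -0.34 (SE 0.04), 1.26-fold lower. TPM4, on chromosome 19 (16067021 to 16103002, plus strand), had 20.63, 20.55 and 21.11 FPKM in the mutant, against 14.65, 14.98 and 15.33 FPKM in the wild type. All of its mutant values were above the wild-type ones, with a log2 fold change of 0.44 (SE 0.04), 1.35-fold higher. The TPM4 to TPM3 ratio was 0.742 ± 0.00584 in the mutant and 0.434 ± 0.00836 in the wild type (SD, n = 3 each), so TPM4 came closer to TPM3 in every mutant library without passing it. Processed copies can take reads from TPM3, and the 11 tropomyosin pseudogenes in the table held 141 to 217 counts per library in sum, against 6878 to 9601 for TPM3. These counts do not measure the reads lost from TPM3, since the handling of reads that match both places was not examined.

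For the less abundant tropomyosins, TPM1 and TPM2, the values of the groups overlapped. TPM1, on chromosome 15 (63042632 to 63071915, plus strand), had 2.69, 2.66 and 2.43 FPKM in the mutant, against 2.59, 2.36 and 2.72 FPKM in the wild type. Neither group stood above the other, and the log2 fold change was -0.01 (95% interval -0.16 to 0.14). TPM2, on chromosome 9 (35681992 to 35690056, minus strand), had 2.22, 2.69 and 2.12 FPKM in the mutant, against 3.15, 2.64 and 3.19 FPKM in the wild type. Mutant replicate 2 lay above wild-type replicate 2, while the other values were lower in the mutant. The log2 fold change of TPM2 was -0.39 (SE 0.13), a level 1.31-fold lower. It was called in the fit, but no longer when mutant replicate 1 (-0.35), mutant replicate 3 (-0.33) or wild-type replicate 3 (-0.35) was left out.

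In sum the tropomyosins were close in the groups, at 53.22, 53.86 and 54.00 FPKM in the mutant and 54.58, 53.76 and 56.93 FPKM in the wild type. The ranges of these sums overlapped. TPM3 made up 51.9 to 52.5% of the sum in mutant and 62.6 to 62.8% in wild-type libraries, and TPM4 38.7% ± 0.476 in the mutant and 27.2% ± 0.567 in the wild type (SD, n = 3 each). TPM1 held 4.83% ± 0.293 in the mutant and 4.64% ± 0.215 in the wild type, and TPM2 4.36% ± 0.560 in the mutant and 5.43% ± 0.456 in the wild type. Summed tropomyosin was 6.79 ± 0.234 times summed tropomodulin in the mutant and 6.42 ± 0.306 times in the wild type (SD, n = 3 each), with overlapping values.

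**Figure D2:**
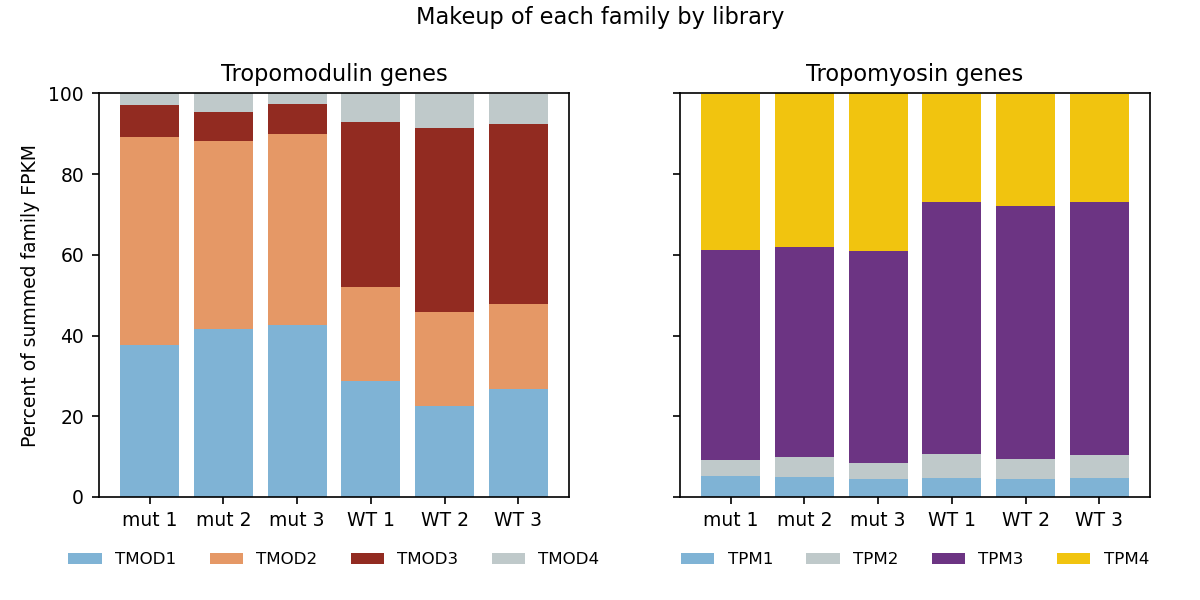
Share of each member in the summed FPKM of its family (percent), as stacked bars for the 3 mutant (mut) and 3 wild-type (WT) libraries, tropomodulins left and tropomyosins right. TMOD3 takes 7.28 to 7.74% of the tropomodulin sum in mutant and 40.9 to 45.6% in wild-type libraries, and TPM4 takes 38.2 to 39.1% of the tropomyosin sum in mutant and 26.8 to 27.9% in wild-type libraries.

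The order of levels within a group was read from FPKM, which divides by exonic length and so allows genes to be compared. In the mutant it ran from TPM3 through TPM4, TMOD2, TMOD1, TPM1, TPM2 and TMOD3 to TMOD4. TPM1 and TPM2 were the only neighbours in that order whose values overlapped. In the wild type it ran from TPM3 through TPM4, TMOD3, TPM2, TPM1, TMOD1 and TMOD2 to TMOD4. There TPM2 and TPM1, TPM1 and TMOD1, and TMOD1 and TMOD2 overlapped, so the ranks of these 4 genes are not separated by the spread. TMOD3 ranked 3 of 8 in the wild type and 7 of 8 in the mutant. The deposited exonic length of TPM3 was 15156 bases, against 8389 bases in GENCODE 29, and that of TPM4 was 12375 against 8632 bases. With the GENCODE lengths the TPM3 mean was 50.6 FPKM in the mutant and 62.4 FPKM in the wild type. Levels compared between these genes thus depend on the length used, and reads were not recounted with another gene model.

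The members differed in both directions. Of the 7 that were tested, 6 were called, 3 higher (TMOD1, TMOD2 and TPM4) and 3 lower (TMOD3, TPM2 and TPM3) in the mutant, against 58% of all tested genes called. These calls rest on the values that chose the members, and TMOD3 was tested because of its wild-type level, so the count is a description only. Values did not overlap between groups for 5 of the 7 tested members, a property that 62.9% of tested genes had, and did not overlap for TMOD4 either. Among the 7 tested members, TMOD3 alone passed both the adjusted p and a 2-fold difference, as 0.789% of tested genes did in the lower and 3.56% in the higher direction. An absolute log2 fold change larger than that of TMOD3 was found in 0.135% of tested genes, larger than that of TMOD2 in 5.33%, of TMOD1 in 21.9%, of TPM4 in 26.0% and of TPM3 in 36.9%.

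**Figure D3:**
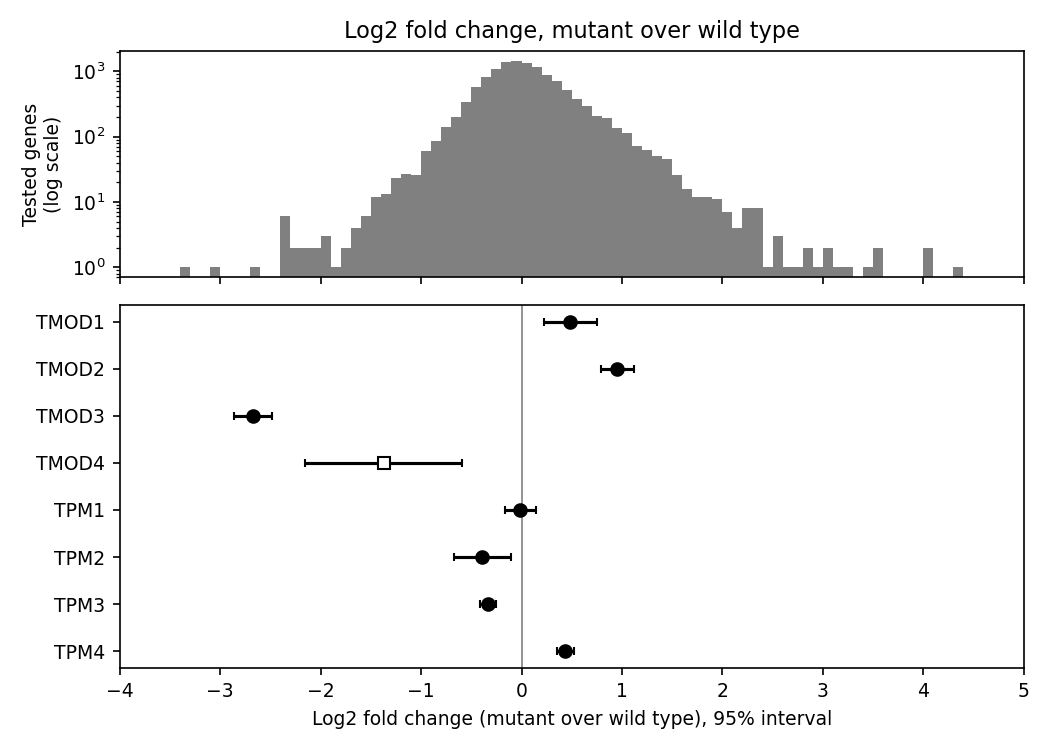
Top, number of tested genes (log axis) by log2 fold change, mutant over wild type, within the plotted range of -4 to 5. Bottom, log2 fold change of each member with its 95% interval (filled circles from the fit of all tested genes, open square for TMOD4 from the fit without a minimum), where TMOD3 at -2.68 lies in the thin left tail and the other tested members lie between -0.39 and 0.95.

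The genes around TMOD2 and TMOD3 had smaller differences, in both directions. The 20 tested genes nearest to the pair on chromosome 15 were taken, 10 on either side, with members left out. Of these, 8 were higher, 3 lower and 9 not called, where 58% of all tested genes were called. Their median log2 fold change was 0.13, with a range of -0.45 (AP4E1) to 0.82 (GABPB1-AS1). LYSMD2, the tested gene before TMOD2, ends 11 bases before TMOD2 begins and is transcribed away from it. It had a log2 fold change of 0.19 (SE 0.20) and was not called (adjusted p = 0.446, edgeR). LEO1, a subunit gene of the PAF1 transcription complex, follows TMOD3 on the other strand and shares 4 exonic bases with it. Its value was -0.12 (SE 0.06, adjusted p = 0.110, edgeR). Over the chromosome, 386 other tested genes had a median of 0.03, with 110 higher and 84 lower. The other members' chromosomes had medians near 0 as well, at -0.01 for chromosome 1, -0.02 for chromosome 9 and -0.05 for chromosome 19. Near TPM1 the median of 20 neighbours was 0.01, near TPM3 0.03, near TPM2 0.01 and near TMOD1 0.07. Near TPM4, itself higher in the mutant, it was -0.18, with 2 neighbours higher and 10 lower. Near TMOD4 it was 0.19, and SCNM1, which overlaps TMOD4, had the lowest value there at -0.49.

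**Figure D4:**
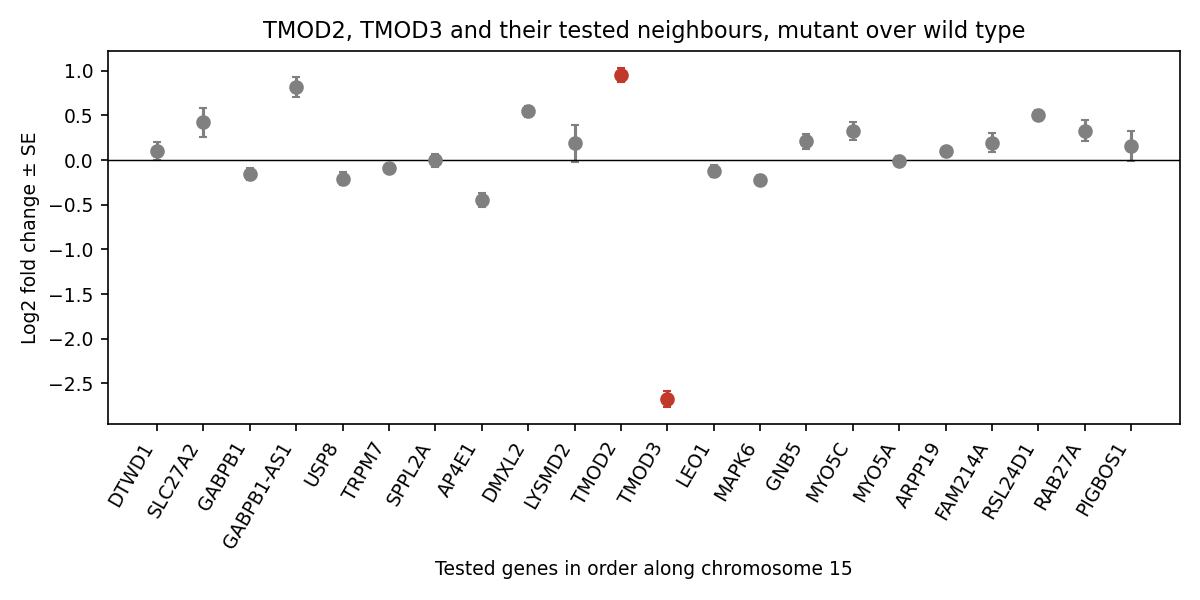
Log2 fold change, mutant over wild type, with SE bars, for TMOD2 and TMOD3 (red) and the 10 nearest tested genes on either side (grey), in order along chromosome 15 and not spaced by distance. TMOD2 at 0.95 and TMOD3 at -2.68 stand next to each other, and the 20 neighbours lie between -0.45 and 0.82.

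The genes whose profile over the 6 libraries was most like that of TMOD3 were sought among 6934 protein-coding genes with a mean of at least 5 FPKM, by the root-mean-square difference of mean-centred log2(FPKM + 0.1) values. The closest was ALDH1A2, a retinoic acid synthesis enzyme, with a difference of 0.18, where TMOD3 itself spanned 2.57 log2 units. HOXB6 (0.35), HOXA6 (0.49), HOXA5 (0.52) and HOXB5 (0.52), which encode homeodomain factors of axial patterning, came next. With 6 libraries in 2 groups, this likeness mostly reflects a difference between the groups of similar size.

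Other proteins at the pointed end and along the filament were examined through lists of genes grouped by function. LMOD1, a leiomodin and so a tropomodulin relative that nucleates actin and is known from smooth muscle, rose in the mutant. It had 3.17, 2.95 and 3.32 FPKM in the mutant, against 1.64, 1.06 and 1.29 FPKM in the wild type. The groups did not overlap (log2 fold change 1.20, SE 0.14, adjusted p = 1.34e-06, edgeR). LMOD1 lies on chromosome 1 (201896456 to 201946588, minus strand), the chromosome that also carries the edited adenosine A1 receptor gene. The part of that position in its difference was not tested. LMOD2 and LMOD3 had at most 6 counts in a library and were not tested. Troponins sit on tropomyosin in striated muscle, and 2 of 8 troponin genes were tested. Both were higher, as were 29.4% of all tested genes. TNNT1, slow skeletal troponin T, rose to 22.56, 24.08 and 23.19 FPKM in the mutant, against 12.31, 9.15 and 10.32 FPKM in the wild type (log2 fold change 1.10, SE 0.09, adjusted p = 7.37e-09, edgeR). TNNI3, cardiac troponin I, rose by 0.81 (SE 0.15, adjusted p = 1.30e-04, edgeR). These 2 genes lie close together on the minus strand of chromosome 19, TNNT1 at 55132698 to 55149206 and TNNI3 at 55151767 to 55157773. The other 6 troponin genes, among them both troponin C genes, were at most 0.40 FPKM in every library.

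Actin itself differed modestly. Of 6 actin genes, 3 were tested, with 1 higher and 1 lower, where 58% of all tested genes were called. ACTB, cytoplasmic beta-actin, fell to 365 ± 17.4 FPKM in the mutant, against 477 ± 59.1 FPKM in the wild type (SD, n = 3 each; log2 fold change -0.42, adjusted p = 2.63e-05, edgeR). ACTA2, the smooth muscle actin, rose by 0.52 on the log2 scale (SE 0.10, adjusted p = 3.26e-04, edgeR). ACTG1, cytoplasmic gamma-actin and the most abundant actin, had a log2 fold change of -0.10 and was not called (adjusted p = 0.280, edgeR). It was called at -0.23 (adjusted p = 1.75e-04, edgeR) without wild-type replicate 1, and at -0.14 (adjusted p = 2.75e-04, edgeR) with no minimum. Actin genes have near-identical copies, so these values are uncertain.

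At the opposite, barbed end of the filament and among severing proteins, more genes fell than rose. Of 17 tested, 3 rose, 10 fell and 4 were not called, with a median of -0.15, where 29.4% of all tested genes were higher and 28.7% lower. CAP1, which recycles actin monomers, changed by -0.35 (adjusted p = 1.20e-06, edgeR), WDR1, a cofilin cofactor, by -0.33 (adjusted p = 1.71e-05, edgeR), and cofilin 1 (CFL1) by -0.23 (adjusted p = 1.43e-04, edgeR). CAPZA1, a capping protein subunit and the most abundant of the list, changed by -0.15 (adjusted p = 0.00218, edgeR), a call lost with quantile normalization (adjusted p = 0.148, limma). That normalization left 7 of the 17 called, and it called 6885 of all 12550 tested genes. The differences in this list were small next to that of TMOD3, with the called falls between -0.12 and -0.35.

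Formins and other nucleators, which start and elongate unbranched filaments, were mostly higher. Of 13 tested, 11 rose, 1 fell and 1 was not called, with a median log2 fold change of 0.34, against 29.4% of all tested genes higher. FHOD1 rose to 17.8 ± 1.22 FPKM in the mutant, against 9.53 ± 0.847 FPKM in the wild type (SD, n = 3 each; log2 fold change 0.87, adjusted p = 6.14e-09, edgeR). It lies on chromosome 16, where the median of 578 tested genes was 0.29. FMN2 rose by 0.96 and DAAM2 by 0.68 (adjusted p = 2.82e-07 and 5.54e-06, edgeR), and their means were 1.37 and 2.29 FPKM in the mutant, against 0.69 and 1.40 FPKM in the wild type. FMN2 and COBLL1 (1.12 FPKM in the mutant, 0.887 FPKM in the wild type) entered the test through their mutant level. Their place among the rises thus depends on the minimum. DIAPH1, the most abundant formin, fell by 0.17 (adjusted p = 0.00493, edgeR), and was not called with quantile normalization (adjusted p = 0.187, limma). That normalization left 7 of the 13 called, and it called 6885 of all 12550 tested genes.

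The Arp2/3 complex and its activators, which make branched networks, were split, with 7 of 20 higher, 7 lower and a median of -0.03. Among all tested genes 29.4% were higher and 28.7% lower. ABI2 and CYFIP2 of the WAVE complex rose by 0.55 and 0.40 (adjusted p = 1.11e-08 and 2.73e-06, edgeR), and ABI1 changed by -0.46 (adjusted p = 1.66e-06, edgeR). ABI1 lies on chromosome 10, where the median of 492 tested genes was -0.36. ACTR2, the most abundant of the list, had 143.7 ± 2.16 FPKM in the mutant and 140.5 ± 3.88 FPKM in the wild type (SD, n = 3 each) and was not called (adjusted p = 0.992, edgeR).

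The spectrin membrane skeleton is the setting in which tropomodulin capping of short filaments was first described, in red blood cells. Of 11 tested genes, 3 rose, 4 fell and 4 were not called, with a median of 0.00396, where 58% of all tested genes were called. ADD2, beta-adducin, rose by 0.61 (adjusted p = 1.13e-07, edgeR) and EPB41L1, a protein 4.1 gene on chromosome 20, by 0.53 (adjusted p = 4.31e-06, edgeR). SPTAN1, alpha-II spectrin, changed by -0.29 (adjusted p = 7.84e-06, edgeR). EPB41L2, the most abundant, had 23.5 ± 0.289 FPKM in the mutant and 22.8 ± 1.16 FPKM in the wild type (SD, n = 3 each) and was not called (adjusted p = 0.802, edgeR).

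Motors and regulators that compete with or depend on tropomyosin were called in both directions. Of 14 tested genes of nonmuscle myosin II and its regulators, 3 rose, 3 fell and 8 were not called (median -0.02), where 58% of all tested genes were called. MYH9, the heavy chain of nonmuscle myosin IIA, changed by -0.37 (adjusted p = 1.41e-06, edgeR) and lies on chromosome 22, where the median of 333 tested genes was -0.16. MYH14, the IIC heavy chain, rose by 0.50 (adjusted p = 3.79e-05, edgeR), and CALD1, caldesmon, which binds actin and tropomyosin, by 0.28 (adjusted p = 1.14e-05, edgeR). TAGLN2, the most abundant, was not called (-0.09, adjusted p = 0.178, edgeR) but was without wild-type replicate 2 (-0.17, adjusted p = 0.00811, edgeR) and with no minimum (-0.13, adjusted p = 0.0107, edgeR).

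Of 5 genes of actin monomer binders, 3 rose, 1 fell and 1 was not called, where 58% of all tested genes were called. The thymosins TMSB4X and TMSB15A rose by 1.01 and 0.92 (adjusted p = 9.11e-07 and 4.56e-07, edgeR), and profilin 2 (PFN2) by 0.21 (adjusted p = 0.00218, edgeR). TMSB10, the most abundant, was at 493 ± 44.6 FPKM in the mutant and 477 ± 32.3 FPKM in the wild type (SD, n = 3 each) and was not called (adjusted p = 0.832, edgeR). Of 16 crosslinkers and membrane linkers, 7 rose, 6 fell and 3 were not called (median 0.10). With quantile normalization 8 of the 16 were called, and 6885 of all 12550 tested genes. The plastins PLS1 and PLS3 rose by 0.44 and 0.31 (adjusted p = 4.60e-06 and 5.15e-06, edgeR), MARCKSL1 by 0.17 (adjusted p = 0.00173, edgeR), and ezrin (EZR) changed by -0.25 (adjusted p = 8.07e-05, edgeR).

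SRF and its actin-sensing cofactors drive many actin and tropomyosin genes. Of 14 tested genes among these factors and targets, 6 rose, 3 fell and 5 were not called, with a median of 0.15, so 9 of 14 were called, where 58% of all tested genes were. EGR1, FOS and CCN1, which other signals also induce, rose by 4.37, 4.07 and 2.24 (adjusted p = 1.07e-09, 1.25e-08 and 1.12e-11, edgeR). The other rises were the cofactor MRTFB (0.39), ACTA2 and CCN2. The falls were the cofactor MRTFA (-0.46), ACTB and VCL. MRTFB lies on chromosome 16, where the median of tested genes was 0.29, and MRTFA on chromosome 22, where it was -0.16. VCL (-0.17) and ACTA2 (0.52) both lie on chromosome 10, where the median was -0.36. The part of these chromosomes was not tested. SRF itself (-0.06), ACTG1, CNN2, FHL2 and FLNA were not called. EGR1 varied among mutant libraries, with 36.98, 14.88 and 19.91 FPKM in the mutant, against 1.08, 1.25 and 1.08 FPKM in the wild type. FOS entered the test through its mutant level, with a mean of 5.33 FPKM in the mutant and 0.313 FPKM in the wild type. Over all 11 lists, 110 genes were tested once each, of which 46 rose, 34 fell and 30 were not called, or 72.7% called against 58% of all tested genes. Their median log2 fold change was 0.07. With a minimum of 5 FPKM the listed genes were not called more often than all tested genes.

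**Figure D5:**
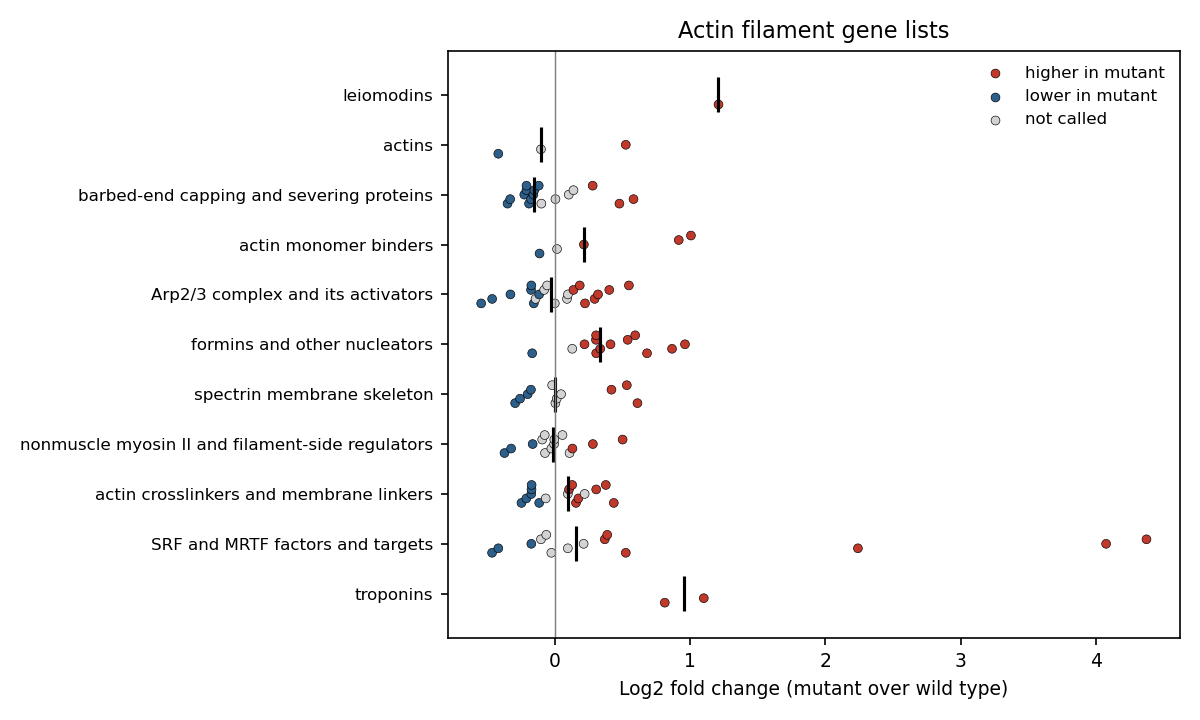
Log2 fold change, mutant over wild type, of each tested gene in 11 lists of actin filament genes (points; red higher, blue lower, grey not called at an adjusted p of 0.05), with a black bar at each list's median. Formins and other nucleators lie mostly to the right of 0 (median 0.34) and barbed-end capping and severing proteins mostly to its left (median -0.15), and no listed gene reaches the -2.68 of TMOD3, which is not drawn.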

How the data were processed

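Per the labels' protocols, mRNA was selected by its poly(A) tail, and libraries were read from both ends on an Illumina NovaSeq. The authors deposited raw counts per gene and FPKM for each library, per the file headers, and made them with cutadapt, HISAT2 2.0.1 and HTSeq on GRCh38, per the submitters' processing notes. The sources used here do not state the annotation release or strand use. Deposited FPKM matched values recomputed from counts, deposited lengths and library totals within 0.011 for 100% of values.

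Genes with a mean of at least 1 FPKM over 6 libraries (12550) were tested on counts with the quasi-likelihood test of edgeR 4.0.16 (TMM factors 0.980 to 1.017, genotype as the single factor, Benjamini-Hochberg adjustment over all tested genes, called below 0.05). The script was tested on simulated data. Labels call the libraries biological replicates, without naming separate cultures, so p-values measure the spread between these libraries, which may be technical. No pair of libraries was a duplicate (chi-square per degree of freedom at least 2.50). Alternatives used DESeq2 1.42.0 and limma 3.58.1.

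Members and lists were chosen with earlier results of these data known. Named genes were all 8 members, the 3 genes with the smallest adjusted p and the most abundant gene of each list, the tested neighbours of TMOD3, and the 5 profiles most like it. Other genes named were chosen after their values were seen. Of 194 list entries, 194 matched the table. Promoter windows came from RefSeq (GRCh38.p14). Protein sequences were not analysed here. One marker list is not reported here.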

Additional observations from a re-analysis of the deposited data

How the results depend on the processing

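TMOD1, TMOD2, TMOD3, TPM3 and TPM4 kept their direction and call under every alternative that tested them: 3 other scalings, no minimum, DESeq2, 3 limma fits, the replicate block and each library left out, and for TPM3 and TPM4 also a minimum of 5 FPKM. TMOD4 had a value only without a minimum. A minimum of 5 FPKM tests fewer genes: 4597 of 7304 were called (2300 higher, 2297 lower), with both remaining members (2 of 2). Of listed actin genes 53 of 89 were called, a smaller share than of all genes tested there. Among them were 8 capping and severing genes, 4 formins, 1 troponin and 0 leiomodins. Without a minimum, where 8966 of all 32852 genes were called, 4 actins were called. Leaving out 1 library gave 6437 to 7407 calls (3297 to 3760 higher, 3140 to 3647 lower), 5 or 6 members and 68 to 83 listed genes. TPM2 was then between -0.50 and -0.33, and TPM1 between -0.0606 and 0.0327. TPM1, never called, was above 0 with library totals (0.0254), upper quartile scaling (0.0294) and limma on log2(FPKM + 1) (0.0153) or log2(FPKM + 0.1) (0.0207). The split of calls moved with scaling: 4126 higher and 3128 lower with library totals, 4177 and 3083 with upper quartiles.

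Shares of a family depend on length, as tried after seeing the data. In summed counts, with no length, TMOD3 was 10.1% of tropomodulins in the mutant and 55.5% in the wild type, and TMOD2 70.4% in the mutant and 31.3% in the wild type. TPM3 was 58.6% of tropomyosins in the mutant and 69.5% in the wild type, and TPM4 35.5% in the mutant and 24.6% in the wild type. With GENCODE 29 lengths TPM3 was 59.2% in the mutant and 69.7% in the wild type, and TPM4 34.9% in the mutant and 24.0% in the wild type.

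Genes not called changed sign at small values. ACTG1 was 0.0276 with quantile normalization (leaving out 1 library, -0.23 to 0.00814), and TAGLN2 0.0021. Without a minimum, TMSB10 was -0.0215 (leaving out 1 library, -0.0509 to 0.0847) and EPB41L2 -0.0238 (-0.0303 to 0.0365). ACTR2 was 0.0364 with library totals, 0.0408 with upper quartiles, 0.0467 with a minimum of 5 FPKM, 0.0321 and 0.0323 in limma on log2(FPKM + 1) and log2(FPKM + 0.1), and 0.0734 with quantiles (leaving out 1 library, -0.0178 to 0.0190). The cause was not tested.

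The numbers did not pair the libraries: deviations of same-numbered libraries correlated at -0.05 to 0.01, and 0 of 3 mutant libraries correlated best with its own number. With the replicate block 7069 genes, 6 members and 77 listed genes were called. TMOD4 rests on 6 to 22 counts per library, which limits its precision.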
